A study of Mus musculus with 8 samples.

Results

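The RNA polymerase II elongation factor genes examined here are 32 named genes, taken from 21883 protein-coding genes of the mouse genome and sorted into 9 complexes or families. The genes are given by name, with no threshold on a measured value. For each gene the percent of its span under peaks of the histone mark H3K36me3, called its coverage below, was measured in bone marrow stromal cells (BMSCs). The spans, from RefSeq on build GRCm38.p6, lay on 15 chromosomes, ran over 3.40 to 263 kb with a median of 29.9 kb, and summed to 1433 kb.

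Both groups were cultured BMSCs of Setd2 fl/fl mice, in which both Setd2 alleles are flanked by sites for the recombinase Cre, on the C57BL/6J strain at passage 2. KO cells received a lentivirus for Cre and WT cells a lentivirus for GFP, so the cells called WT also carried the floxed alleles and a lentivirus. After 4 days in puromycin (2 µg/ml), both were fixed for 10 min in 1% formaldehyde. Chromatin immunoprecipitation followed by sequencing gave 2 H3K36me3 libraries, 1 Input library and 1 IgG library per genotype. The labels give neither the age nor the number of the mice, and they do not say whether replicate libraries were made from different cultures. The spread that enters the p-values may therefore be technical.

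Elongation factors act on RNA polymerase II after it has started a transcript. DSIF and NELF hold the polymerase just downstream of the promoter until the kinase P-TEFb phosphorylates them and the polymerase tail, and factors such as Spt6, FACT and the PAF1 complex then travel with it along the gene and through nucleosomes. SETD2 binds the phosphorylated tail of the elongating polymerase and places H3K36me3 on the nucleosomes behind it, so the mark is known to lie over the bodies of transcribed genes. The same genes that encode this machinery are thus themselves templates for the mark, and it is this mark on the genes, not the amount of the factors, that was measured.

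Promoter sequences are printed for 4 of the genes that mark the extremes of what follows: Supt6, with the highest mean WT coverage of the 32; Cdc73, the one tested gene with significantly less coverage at its 3′ than at its 5′ side in WT; Nelfa, with the highest coverage in KO; and Hexim1, without a peak in any library. Each is the RefSeq GRCm38.p6 stretch of 250 bases before to 50 after the annotated start, printed 5′ to 3′ on the gene's own strand. They lie at chr11:78245654-78245953 (minus strand), chr1:143702844-143703143 (minus), chr5:33936222-33936521 (minus) and chr11:103116075-103116374 (plus), in that order. Capitals mark matches to 5 short promoter motifs, searched on both strands and spelled out with their shares after the sequences.
Supt6: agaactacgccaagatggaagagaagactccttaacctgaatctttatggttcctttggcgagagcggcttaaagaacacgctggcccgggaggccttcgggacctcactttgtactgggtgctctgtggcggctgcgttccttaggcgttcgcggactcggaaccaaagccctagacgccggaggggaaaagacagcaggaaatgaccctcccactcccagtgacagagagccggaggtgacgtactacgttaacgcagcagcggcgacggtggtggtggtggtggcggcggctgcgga
Cdc73: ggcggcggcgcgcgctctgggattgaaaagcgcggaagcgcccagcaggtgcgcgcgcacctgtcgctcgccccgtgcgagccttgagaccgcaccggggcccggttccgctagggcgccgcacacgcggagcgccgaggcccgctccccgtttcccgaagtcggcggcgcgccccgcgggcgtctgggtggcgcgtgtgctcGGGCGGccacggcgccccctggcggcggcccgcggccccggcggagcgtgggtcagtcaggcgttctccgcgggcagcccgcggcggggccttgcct
Nelfa: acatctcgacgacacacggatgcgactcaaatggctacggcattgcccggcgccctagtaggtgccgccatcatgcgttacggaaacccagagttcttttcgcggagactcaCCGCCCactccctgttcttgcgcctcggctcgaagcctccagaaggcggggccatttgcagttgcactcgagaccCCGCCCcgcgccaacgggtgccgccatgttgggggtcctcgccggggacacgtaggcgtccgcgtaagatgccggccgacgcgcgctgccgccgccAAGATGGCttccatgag
Hexim1: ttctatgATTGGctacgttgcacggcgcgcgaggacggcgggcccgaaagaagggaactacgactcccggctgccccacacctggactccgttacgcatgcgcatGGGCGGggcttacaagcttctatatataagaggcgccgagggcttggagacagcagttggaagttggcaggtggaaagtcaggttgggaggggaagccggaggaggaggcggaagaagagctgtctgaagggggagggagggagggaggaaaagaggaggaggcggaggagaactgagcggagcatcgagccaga
No base of any of these 4 windows lay under a peak in KO or WT. The same was true of all 29 promoter windows available for 26 of the genes, in both KO and both WT libraries. Over all 21262 promoter windows of protein-coding genes, 1.87 and 2.23% held a peak base in the KO libraries, and 3.35 and 3.28% in the WT libraries. The GC box, GGGCGG, was present in 86.2% of the 29 windows, against 46.2% of all windows. The TATA box, searched as TATAAA, was in 3.45% of the 29 and in 12.6% of all. A motif bound by ETS factors, CCGGAAG, was in 24.1% of the 29 and in 11.6% of all, and a motif bound by YY1, AAGATGGC, was in 10.3% of the 29 and in 3.05% of all. The CCAAT box was in 37.9% of the 29 and in 38.2% of all. The windows had a median GC content of 65.3%, against 56.3% over all windows, and a median of 29 CpG dinucleotides against 13. These shares describe letters and were not tested.

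In the libraries as a whole, peak lists against Input held 122589 and 159459 peaks in KO and 242745 and 246258 in WT, covering 71.7 and 94.4 Mb in KO and 243 and 235 Mb in WT. Setd2, the targeted gene, was covered at 0.690 and 1.70% in KO and at 66.4 and 60.5% in WT, but a peak list does not show the deletion itself. Of 12 stromal marker genes, 9 had at least 10% coverage in both WT libraries, while Thy1 was at 0 in all 4 libraries. Of 8 haematopoietic markers, 6 reached that level in both WT libraries, among them the macrophage gene Lyz2 at 74.9 and 87.6%, and the T cell gene Cd3e was at 0 there. Of 4 endothelial markers, none did. Mean coverage was 2.87 ± 0.477% in KO and 43.6 ± 1.56% in WT over the stromal list, 3.35 ± 1.69% in KO and 29.4 ± 3.63% in WT over the haematopoietic list, and 5.65 ± 1.98% in KO and 3.58 ± 1.85% in WT over the endothelial list (SD, n = 2 each). Against IgG the stromal genes Vim, Col1a1 and Fn1 and the macrophage gene Lyz2 were at 0 in both WT libraries. The part of other cell types in the results was not tested. The lists hold no read counts, so depth is unknown, and a value of 0 means that no peak was called.

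The question put to the 32 genes was how much of the mark remained on them after Cre. In KO, H3K36me3 peaks covered little of them: mean coverage was 2.27 ± 1.20%, against 58.4 ± 2.05% in WT (SD, n = 2 libraries each). Over all protein-coding genes it was 3.32 ± 0.566% in KO and 25.9 ± 0.596% in WT (SD, n = 2 libraries each). Coverage fell in every one of the 30 genes that could be tested, with differences of -82.5 to -25.3 percentage points (KO minus WT). Across all 9 complexes the same direction was seen. In points, the largest falls were in Supt6, Ctr9 and Ccnk and the smallest in Cdk13, Ccnt2 and Larp7. As a share of WT coverage, KO coverage had a median of 2.88% over the 31 genes with peaks. This share was 1.20% in Cdk13, 3.71% in Supt6, 12.2% in Larp7 and highest in Nelfa, at 20.2%. The order by share thus differs from the order by points. Genes were tested with limma on the percent scale over all genes whose 4 libraries averaged 10% or more, and the 30 adjusted p-values lay between 0.000211 and 0.00400. Those p-values rest on the spread of both pairs of libraries, and that of the KO pair was 0 in genes with no KO peak. A fall was the rule among all genes tested too: 92.6% of the 10806 were lower in KO at a limma adjusted p under 0.05. Another 0.555% were higher, so the count of 30 in 30 is close to the background of tested genes. The minimum is a mean over KO and WT, so a gene with no KO peak entered the test through its WT level. The median change was -63.1 points over the 30 genes and -47.7 points over all genes tested. It was -61.3 points over all 32 genes and -10.6 points over all 21883 protein-coding genes, with or without peaks. In ChIP from a mixed culture, fewer cells carrying the mark and less mark per cell cannot be told apart.

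**Figure D1:**
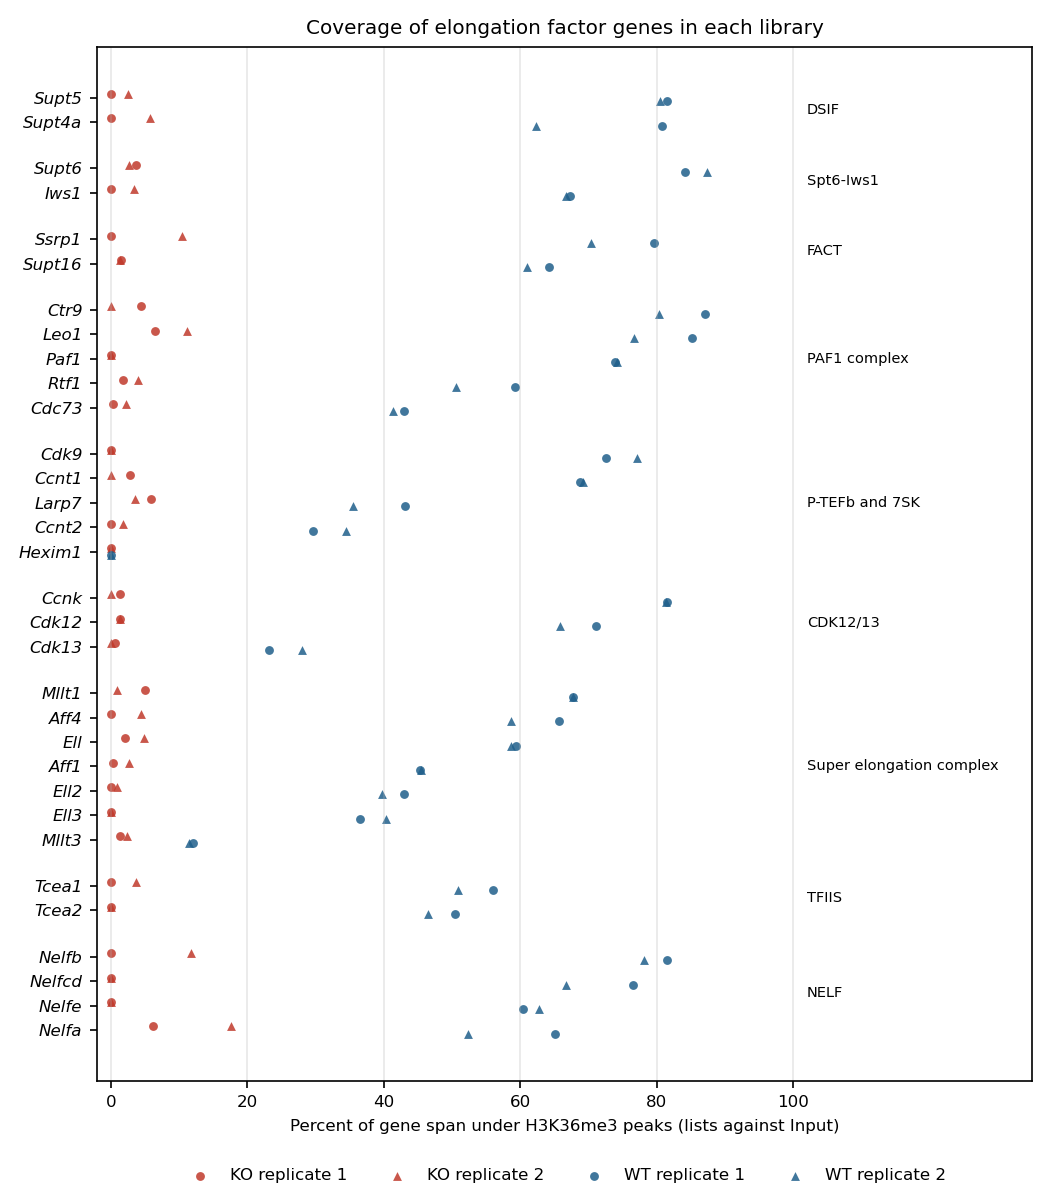
Percent of each gene's span under H3K36me3 peaks called against Input (x axis), by gene and complex (y axis), with 1 point per library, KO in red drawn just above WT in blue. In 31 of the 32 genes both KO points lie left of both WT points, and Hexim1 has all 4 points at 0.

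Of the 32 genes, 31 had both KO libraries below both WT libraries, against 54.3% of all protein-coding genes. Both KO libraries were under 10% in 28 of 32 (89.3% of all protein-coding genes), and 7 had no peak in either KO library (33.1% of all). Of the rest, 13 had a peak in 1 KO library and 12 in both. By library, 16 and 11 of the 32 were at 0 in KO replicates 1 and 2, against 10357 and 9280 of all 21883 protein-coding genes. In WT the genes stood high: 22 of 32 were at least 50% covered in both libraries, against 22.3% of all protein-coding genes, and 11 exceeded the WT coverage of 90% of protein-coding genes. The 2 genes below the test's minimum were Hexim1 and Mllt3. With the minimum dropped, 58.5% of 18284 genes with any peak base were lower in KO, and so were all 31 of the genes with any peak, Mllt3 included at -9.82 points (limma adjusted p = 0.0123).

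**Figure D2:**
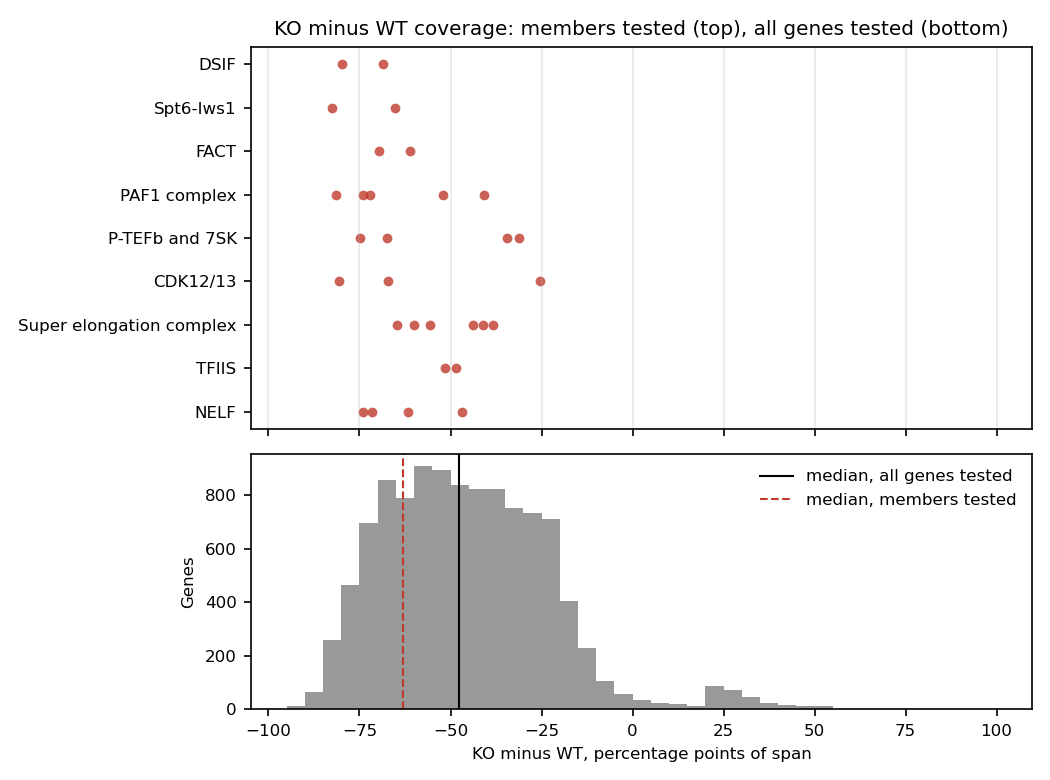
Difference in coverage, KO minus WT, in percentage points of the span (x axis): the 30 tested elongation factor genes as points by complex (top) and all 10806 genes tested as a histogram in bins of 5 points (bottom; y axis, number of genes). All 30 points lie between -82.5 and -25.3; the dashed line marks their median of -63.1 and the solid line the median of all genes of -47.7.

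DSIF is made of SPT4 and SPT5, clamps on the polymerase, and helps both to pause it and to keep it moving. On GRCm38.p6, Supt5 lies at chr7:28314891-28338804 and Supt4a at chr11:87737551-87743623. Supt5 was covered at 0 and 2.48% in the KO libraries and at 81.5 and 80.5% in the WT libraries. Both WT libraries were far above both KO libraries, and Supt5 fell by 79.8 points (SE 2.08, limma adjusted p = 0.000211). Supt4a had 0 and 5.75% in KO, against 80.8 and 62.3% in WT, and fell by 68.7 points (SE 7.49, limma adjusted p = 0.00184). Its WT libraries lay 18.5 points apart, the widest gap among the 32 genes. A near copy of it, Supt4b, sits in the genome as a 710 bp gene. Whether reads were split between the pair was not tested.

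SPT6 is a histone chaperone that rides with the polymerase, and IWS1 is its partner, known from human cells to bring SETD2 to the elongating polymerase. Supt6 lies at chr11:78206749-78245972 and Iws1 at chr18:32067326-32104331. Supt6 was covered at 3.68 and 2.69% in KO and at 84.1 and 87.3% in WT. It fell by 82.5 points, the most of the tested genes (SE 2.22, limma adjusted p = 0.000211). Iws1 had 0 and 3.35% in KO, against 67.3 and 66.7% in WT. The genotypes did not overlap, and Iws1 fell by 65.4 points (SE 2.28, limma adjusted p = 0.000211).

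FACT, the dimer of SPT16 and SSRP1, takes nucleosomes apart ahead of the polymerase and rebuilds them behind it. Ssrp1 lies at chr2:85037120-85047114 and Supt16 at chr14:52160419-52197239. Ssrp1 was covered at 0 and 10.5% in KO and at 79.5 and 70.4% in WT, so 1 of its KO libraries held no peak. Supt16 had 1.51 and 1.40% in KO, against 64.2 and 61.0% in WT. Ssrp1 fell by 69.7 points (SE 5.52, limma adjusted p = 0.000763), and Supt16 fell by 61.1 points (SE 2.25, limma adjusted p = 0.000211).

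The PAF1 complex is a scaffold on the elongating polymerase that is needed for several histone marks of transcribed genes. Ctr9 lies at chr7:111028951-111056377, Leo1 at chr9:75441015-75466432, Paf1 at chr7:28392996-28399383, Rtf1 at chr2:119675068-119735407 and Cdc73 at chr1:143603276-143702893. Mean WT coverage of its 5 genes ran from 42.2% in Cdc73 to 83.7% in Ctr9. Ctr9, the large scaffold subunit, was covered at 4.51 and 0% in KO and at 87.0 and 80.4% in WT. Leo1 had 6.47 and 11.2% in KO, against 85.2 and 76.7% in WT, and was among the genes with the most coverage left in KO. Paf1 had no peak in either KO library and 74.0 and 74.2% in WT. Those 3 genes thus stood high in WT, and in KO they ran from no peak in Paf1 to a mean of 8.86% in Leo1. Rtf1, a subunit that promotes ubiquitination of histone H2B, averaged 2.86 ± 1.56% in KO and 54.9 ± 6.09% in WT (SD, n = 2 each). Cdc73, which encodes the tumour suppressor parafibromin, was at 0.348 and 2.20% in KO and at 43.0 and 41.4% in WT, the lowest of the 5 in WT. All 5 fell, with differences between -81.4 points for Ctr9 and -40.9 points for Cdc73, with limma adjusted p-values of at most 0.000636.

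P-TEFb is the kinase CDK9 with cyclin T1 or T2, and the 7SK particle, with HEXIM1 and LARP7, holds it inactive. Cdk9 lies at chr2:32705782-32712784, Ccnt1 at chr15:98538690-98567736, Ccnt2 at chr1:127774164-127804837, Larp7 at chr3:127536714-127553349 and Hexim1 at chr11:103116325-103119725. Genes of this group ran in mean WT coverage from 0% in Hexim1 to 74.9% in Cdk9, with Ccnt2 below Larp7. Cdk9 had no peak in either KO library and was covered at 72.6 and 77.1% in WT, and fell by 74.9 points (SE 2.52, limma adjusted p = 0.000211). Of the cyclin genes, Ccnt1 averaged 1.44 ± 2.04% in KO and 68.9 ± 0.334% in WT (SD, n = 2 each). Ccnt2 averaged 0.923 ± 1.30% in KO and 32.1 ± 3.47% in WT (SD, n = 2 each), so the cyclin T1 gene was the more covered of the pair in WT. Larp7, the protein that stabilises 7SK RNA, had 5.96 and 3.61% in KO and 43.1 and 35.5% in WT. Hexim1 was at 0 in both KO and both WT libraries, against Input and against IgG. Its span of 3.40 kb is the shortest of the 32, and the mouse gene is known to have no intron. The 4 tested genes of this group all fell, with differences of -74.9 to -31.1 points (limma adjusted p at most 0.00150).

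CDK12 and CDK13 pair with cyclin K and phosphorylate the polymerase tail during productive elongation. Ccnk lies at chr12:108179308-108203359, Cdk12 at chr11:98202433-98281101 and Cdk13 at chr13:17711676-17805212. The cyclin gene had the highest WT coverage of the 3. Ccnk had 1.42 and 0% in KO and 81.5 and 81.4% in WT, and fell by 80.7 points (SE 1.91, limma adjusted p = 0.000211). Cdk12 averaged 1.35 ± 0.0440% in KO and 68.5 ± 3.77% in WT (SD, n = 2 each). Cdk13, with a span of 93.5 kb, had 0.615 and 0% in KO and 23.3 and 28.0% in WT. It fell by 25.3 points, the least of the tested genes (SE 2.66, limma adjusted p = 0.00166).

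The super elongation complex joins P-TEFb to ELL proteins, which raise the rate of elongation, on AFF scaffolds that also hold ENL (Mllt1) or AF9 (Mllt3). Mllt1 lies at chr17:56892608-56935509, Mllt3 at chr4:87769925-88033407, Ell at chr8:70539675-70592858, Ell2 at chr13:75707484-75772361, Ell3 at chr2:121439027-121442601, Aff4 at chr11:53350640-53421830 and Aff1 at chr5:103692362-103855322. Mean WT coverage of its 7 genes ran from 11.7 to 67.7%. Mllt1 was highest, at 5.07 and 0.991% in KO and 67.7 and 67.8% in WT, and fell by 64.7 points (SE 2.42, limma adjusted p = 0.000212). Its paralogue Mllt3, at 263 kb the longest span of the 32, had 1.42 and 2.43% in KO and 12.0 and 11.4% in WT, the lowest WT coverage of the 31 genes with peaks. Among the ELL genes, Ell averaged 3.47 ± 2.02% in KO and 59.1 ± 0.545% in WT (SD, n = 2 each). Ell2 averaged 0.474 ± 0.670% in KO and 41.4 ± 2.26% in WT, and Ell3 had no KO peak and averaged 38.4 ± 2.75% in WT (SD, n = 2 each). Ell was thus the most covered of its family in WT. Of the scaffolds, Aff4 averaged 2.24 ± 3.17% in KO and 62.2 ± 4.96% in WT (SD, n = 2 each). Aff1, with a span of 163 kb, averaged 1.48 ± 1.65% in KO and 45.4 ± 0.0872% in WT (SD, n = 2 each). The 6 tested genes all fell, with differences of -64.7 to -38.4 points (limma adjusted p at most 0.000403).

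TFIIS rescues backtracked polymerase by making it cut its own transcript. Tcea1 lies at chr1:4857694-4897909 and Tcea2 at chr2:181680297-181688067. Its common form Tcea1 was covered at 0 and 3.67% in KO and at 56.0 and 50.9% in WT. Tcea2, a form known for its expression in testis, had no KO peak and 50.5 and 46.5% in WT. Tcea1 fell by 51.6 points (SE 3.04, limma adjusted p = 0.000378), and Tcea2 fell by 48.5 points (SE 2.40, limma adjusted p = 0.000274).

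NELF, the pausing factor, was well covered in WT and held both extremes in KO. Nelfa lies at chr5:33897916-33936301, Nelfb at chr2:25199712-25211489, Nelfcd at chr2:174415804-174427505 and Nelfe at chr17:34850391-34856372. Nelfe and Nelfcd had no peak in either KO library, while WT coverage was 60.4 and 62.7% for Nelfe and 76.5 and 66.7% for Nelfcd. Nelfe fell by 61.6 points (SE 2.11, limma adjusted p = 0.000211), and Nelfcd fell by 71.6 points (SE 4.13, limma adjusted p = 0.000361). Nelfb had 0 and 11.8% in KO and 81.5 and 78.1% in WT, and fell by 73.9 points (SE 4.92, limma adjusted p = 0.000492). Nelfa had 6.12 and 17.6% in KO and 65.1 and 52.4% in WT, and its 17.6% was the highest KO value of the 32 genes. The genotypes still did not overlap in Nelfa, and it fell by 46.9 points with the highest p-value of the tested genes (SE 6.65, limma adjusted p = 0.00400).

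With 1 WT library left out, the spread came from the KO pair, and the remaining WT library was assumed to vary like it. Without WT replicate 1, or without WT replicate 2, 29 genes were tested, with Cdk13 below the minimum coverage. The spread of the KO pair is near 0 in genes with no KO peak, so calls under these settings say little about stability. In the 3 genes whose KO libraries lay furthest apart, differences were -72.3 and -75.6 points (Nelfb), -65.1 and -74.3 (Ssrp1), and -40.6 and -53.2 (Nelfa). The sign could not change in any of the 29 genes, since both KO libraries lay below both WT libraries in each. The median shift was 1.94 points. A change in the counts came from scaling each library to its mean coverage over all protein-coding genes. Scaling made that mean equal in all libraries, while the genes tested were still those with an unscaled mean of at least 10%. The values left after scaling therefore hold for those genes and not for the genome. Then 20 of the 30 genes were lower, against 45.2% of all genes tested, and the medians were -24.9 points for the 30 and -16.7 points for all genes. The 10 not called were Tcea1, Nelfb, Ssrp1, Larp7, Nelfa, Ctr9, Leo1, Aff4, Supt4a and Mllt1. Nelfa turned in sign there, to 16.8 points higher in KO (SE 17.0, limma adjusted p = 0.462).

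Against the IgG library the same direction was seen, with mean coverage over the 32 genes of 1.59 ± 0.586% in KO and 48.7 ± 2.30% in WT (SD, n = 2 each). Against IgG, 27 of the 30 genes were lower in KO (91.4% of 9632 genes tested), and Nelfb, Ssrp1 and Nelfe were not called. In each of these 3 genes, the widest peak that 1 WT library had against Input was missing from its list against IgG. Against IgG, Nelfb was at 0 in both KO libraries and at 5.93 and 59.6% in WT, and a peak of 9577 bp with a deposited score of 737 was missing in WT replicate 1. Ssrp1 was at 0 and 5.03% in KO and at 70.0 and 15.5% in WT against IgG, with a peak of 5122 bp missing in WT replicate 2. Nelfe had no KO peak and 60.4 and 0% in WT, where a peak of 4486 bp was missing in replicate 2. Against Input the WT libraries were close, with a median gap of 3.60 points and 2 genes more than 10 points apart, while 12 genes were more than 10 points apart against IgG.

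**Figure D3:**
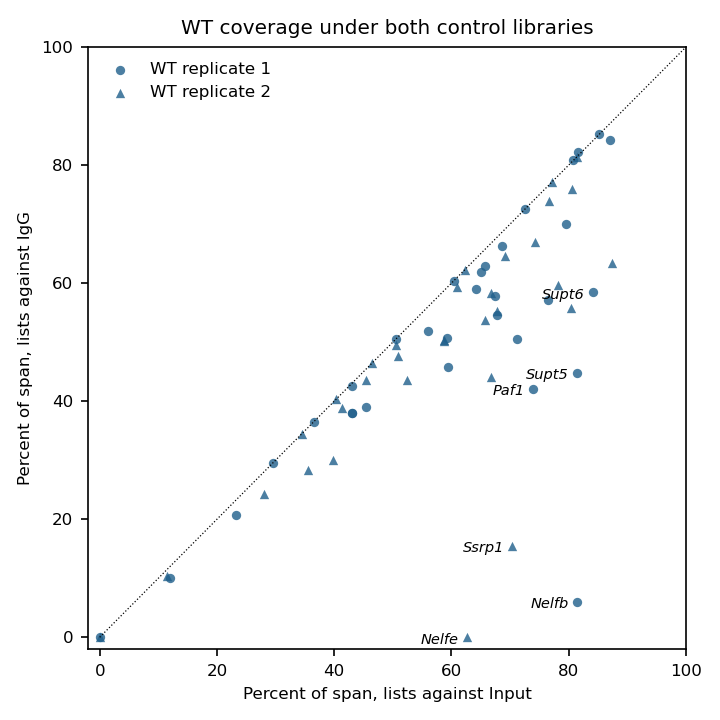
WT coverage of the 32 genes in percent of span, with lists against Input on the x axis and against IgG on the y axis, 1 point per gene and WT library; the dotted line marks equal values. Named points lie more than 25 points apart between the lists, and in 1 WT library each Nelfb is at 5.93%, Ssrp1 at 15.5% and Nelfe at 0 against IgG.

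Along the gene, WT coverage was low at the start and high at the end. In 26 of the genes, those with a strand in the promoter table, the kb before the 5′ edge was covered at 0% in KO and 0.167% in WT on average. The first of 20 equal bins was at 0% in KO and 4.60% in WT. The highest bin in WT, number 18, reached 3.62% in KO and 76.0% in WT, and WT coverage was still 59.3% in kb 1 past the 3′ edge and 31.4% in kb 10. No bin or flanking kb averaged more than 6.54% in KO. From the annotated start to the first WT peak, the distance could be measured in 28 of the 29 windows. It ranged over 713 to 10856 bp in WT replicate 1, with a median of 2157 bp. In WT replicate 2 it ranged over 761 to 10336 bp, with a median of 2418 bp. Ssrp1, Aff1 and Mllt3 entered with more than 1 window. The Aff1 starts lay 61800 and 62211 bp inside its span, so its 5′ edge had no listed start. An Mllt3 start 227084 bp inside its span gave the 10336 bp.

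**Figure D4:**
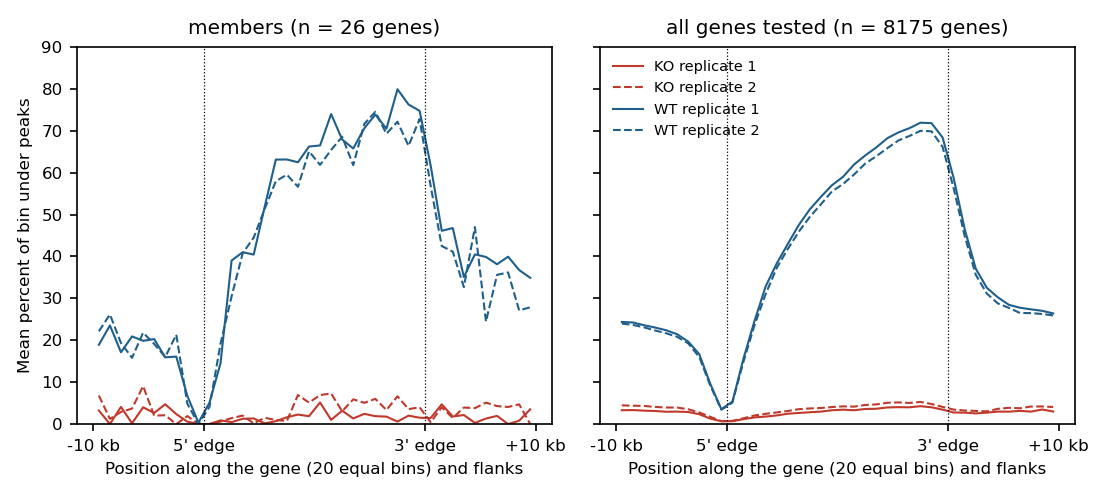
Mean percent of each bin under peaks (y axis) over 20 equal bins of the gene span and 10 kb on either side (x axis), KO in red and WT in blue, replicate 1 solid and replicate 2 dashed; left, 26 elongation factor genes, right, 8175 tested genes of at least 3 kb. WT lines climb from under 6% in the first bin to over 70% near the 3′ edge in the left panel, and KO lines stay under 10%.

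To compare genes, each span was cut in 3 equal parts, and the 3′ part was set against the 5′ part in WT with limma. The fit held both KO and both WT libraries. Its SEs and p-values thus also rest on the spread of the KO pair, which is 0 in genes with no KO peak. Of 24 genes tested, 21 had more coverage in the 3′ part, against 80.2% of 8175 genes, and 1 had less, against 3.29%. Their median difference was 40.2 points, against 41.1 points over all genes. Without WT replicate 1 the count was 11, and without WT replicate 2 it was 10, but there a single WT library was tested against the spread of the KO pair, which is near 0 in genes with no KO peak, so these counts say little about stability. The 11 genes that lost the call in each case (not the same 11) still differed by 19.7 to 76.8 points without WT replicate 1 and by 13.8 to 62.9 points without WT replicate 2. Ell3 had the steepest slope, with the 5′ part at 0 in both WT libraries and the 3′ part averaging 98.2 ± 2.61% (SD, n = 2), a difference of 98.2 points (SE 3.16, limma adjusted p = 0.000980). Supt16 followed, with 12.9 ± 0.236% in the 5′ part and 83.5 ± 0.271% in the 3′ part (SD, n = 2; 70.6 points, SE 3.01, limma adjusted p = 0.000980). In Cdk12 the difference of 1.46 points did not pass (SE 2.48, limma adjusted p = 0.608) and turned to -0.229 without WT replicate 2. In Nelfa it was -2.56 points and did not pass either (SE 4.20, limma adjusted p = 0.597), with the middle part highest at 86.1 and 63.2% in WT. Its sign turned against IgG and without WT replicate 2, and that of Nelfb turned against IgG, to -12.2 points.

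Cdc73 ran the other way. Its 5′ part was covered at 68.3 and 61.9% in WT and its 3′ part at 28.9 and 27.8%, a difference of -36.7 points (SE 3.06, limma adjusted p = 0.00166). Other protein-coding genes overlapped 9.28% of its span, the largest overlap of the 32. Outside those bases the coverage of its whole span was 0.384 and 1.85% in KO and 46.6 and 43.4% in WT. The 5′ and 3′ parts were not computed without those bases, so these values do not bear on the direction. Leaving out the outer 10% of each span at either side added 2 genes with less coverage at the 3′ side, Cdk12 at -24.0 points and Nelfa at -42.9 points (limma adjusted p = 0.00723 and 0.00509).

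**Figure D5:**
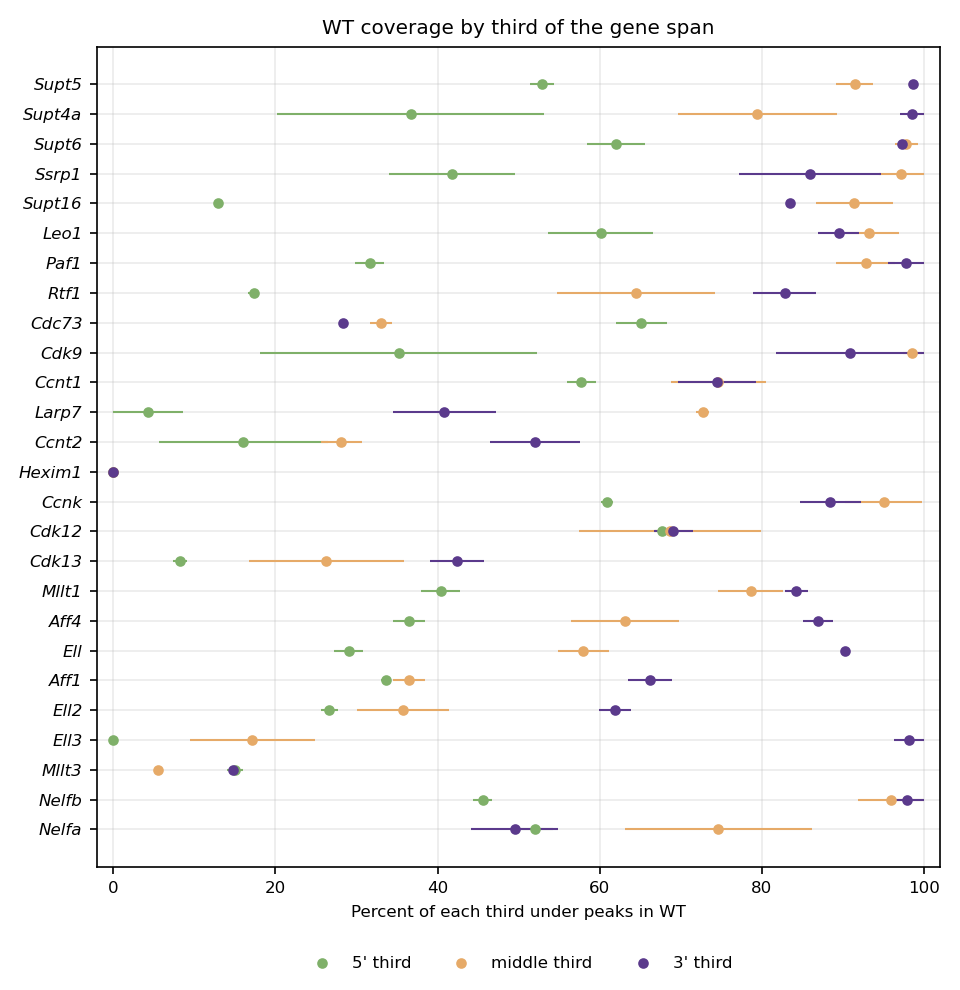
WT coverage in percent (x axis) of the 5′, middle and 3′ part of the span of 26 genes with a known strand (y axis); points are means of the 2 WT libraries and lines join the libraries. The 3′ point lies right of the 5′ point in most genes, and Cdc73 shows the reverse, with 65.1% in the 5′ and 28.4% in the 3′ part.

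Peaks over the genes differed in number and width between genotypes. KO lists held 38 and 71 peaks in the 32 genes, WT lists 557 and 562. The widest peak was 719 and 1626 bp in the KO libraries and 9577 and 7608 bp in the WT libraries, and 94 and 74 WT peaks were wider than 2 kb, against none in KO. Median widths were 543.5 and 571 bp in KO and 855 and 823 bp in WT. Over all peaks of the lists they were 566 and 568 bp in KO and 688 and 668 bp in WT. WT replicates overlapped over 59.6% of their joint bases in the genes, KO replicates over 3.14%. Of 648 regions covered in both WT libraries, 571 (88.1%) held no base of a KO peak, against 83.2% of 197605 such regions over all protein-coding genes. KO peaks covered 19991 and 41594 bp of the genes, and 75.5 and 74.6% of those bases were also under peaks of WT replicate 1 and 67.6 and 68.4% under peaks of WT replicate 2, where WT peaks covered 48.6 and 46.6% of the summed span of the genes.

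The 2 KO libraries shared 1874 bp in 6 regions of the genes, 3 of them in Nelfa and 1 each in Supt6, Leo1 and Aff1. Of these bases, 1493 were also under peaks of both WT libraries. In Nelfa the shared stretches, 434, 172 and 327 bp long, lay between 19745 and 21074 bp from its 5′ edge. No other gene of the 32 had a base in both KO libraries. How many of all protein-coding genes had such a base was not counted.

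By length, the 8 genes under 10 kb had a median of 66.5%, the 15 of 10 to 50 kb of 68.9% and the 9 over 50 kb of 45.4%. Spearman's rho of length and mean WT coverage was -0.271 over the 32 genes and -0.0506 over the 10806 genes tested, given as a description since genes of 1 library are not independent. The sets are unlike, as the 32 include Hexim1 and Mllt3, which lie below the minimum coverage of the genes tested.

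A further 24 genes of the same pathway were listed from textbook knowledge. Of 23 tested, 22 were lower in KO (limma, threshold 0.05), against 92.6% of all genes tested, and Aff3 was below the minimum. Cdk11b, a kinase linked to transcription and splicing, had 0 and 1.84% in KO and 86.5 and 83.9% in WT, and fell by 84.3 points (limma adjusted p = 0.000211). Gtf2f1, the large subunit of TFIIF, had no KO peak and 75.2 and 76.6% in WT, and fell by 75.9 points (limma adjusted p = 0.000211). At the other end of those called, Eaf2, a partner of ELL, had 2.94 and 2.42% in KO and 24.9 and 21.5% in WT, and fell by 20.5 points (limma adjusted p = 0.00212). Gtf2f2, the small TFIIF subunit, had 0.796 and 2.67% in KO and 27.5 and 23.0% in WT, and fell by 23.5 points (limma adjusted p = 0.00206). Supt4b had no KO peak and 0 and 55.8% in WT, and did not pass (-27.9 points, SE 20.9, limma adjusted p = 0.267).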

How the data were processed

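H3K36me3, Input and IgG libraries of KO and WT cells were grouped by the sample titles. Bowtie2 and the build GRCm38 are named in the submitters' processing notes. Each of 8 peak lists, deposited by the authors, sets 1 H3K36me3 library against the Input or the IgG of its genotype; it gives a score per peak, used as deposited to describe or filter peaks; its scale is not given in the sources used here, and neither are the peak caller's version and settings (peak names start with MACS, per the file). Gene spans came from RefSeq GRCm38.p6; strand was taken from the promoter table, for 26 of 32 genes. Coverage is the percent of a span under merged peaks, computed from the authors' lists. It was tested with limma 3.58.1 in R 4.3.3 (trend and robust eBayes, statmod 1.5.0) over genes with a mean of at least 10%, Benjamini-Hochberg adjusted, with a threshold of 0.05. The coverage scripts were tested on simulated data. Gene lists, members and the genes named (all 32, with values for the extremes of each complex, the 3 highest in KO and the 3 with the largest Input minus IgG difference) were chosen with earlier results of these data known. Alternatives covered control library, score, scaling, filters, peak merging, eBayes options, replicate block, gene parts, overlap and left-out libraries. Both libraries of a genotype share their control libraries.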

Additional observations from a re-analysis of the deposited data

How the results depend on the processing

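All directions of KO against WT held under every alternative run, except Nelfa under scaling (16.8 points). Leaving out a library could not turn a direction, since both KO libraries lay below both WT libraries in every tested elongation factor gene. Scaling each library to its mean coverage left 4889 genes lower in KO and 261 higher, with medians of -24.9 points over the tested elongation factor genes and -16.7 over all genes. A minimum mean coverage of 25% left 5881 genes lower and 18 higher, with medians of -68.1 and -61.1; without a minimum, 494 were higher and the median over all genes was -23.6. Lists against IgG gave 21 genes higher, medians of -49.6 and -42.1, a summed WT coverage of 40.9% and a median 3′ minus 5′ difference of 28.7 points; there Nelfa turned to 2.43 and Nelfb to -12.2 points. Peaks at or above the median score gave 16 genes higher, medians of -57.1 and -45.8, summed coverage of 0.987% in KO and 39.0% in WT, a 3′ minus 5′ median of 48.9 points, 92.8% of shared WT regions without a KO base and 4.26 points for Nelfa. Merging peaks within 1 kb gave medians of -72.4 and -54.5, a summed WT coverage of 55.6% and 74.2% of regions without a KO base; counting only regions at least 50% under KO peaks as shared gave 95.7%. Without the outer 10% of the span at either side, 410 genes and 3 elongation factor genes had less coverage at the 3′ side, the median difference was 29.2 points and Cdk12 turned to -24.0. Leaving out 1 library at a time, with the lone library of that genotype assumed to vary like the other pair, gave 26 to 200 genes higher in KO, medians over all genes of -51.1 to -45.6 points, 4052 to 6020 genes and 10 to 20 elongation factor genes with more coverage at the 3′ side, 85.6 to 94.8% of regions without a KO base, and 3′ minus 5′ differences of -0.229 to 3.15 points in Cdk12 and of -5.76 to 0.637 points in Nelfa, where both turned in sign without WT replicate 2. The labels give KO and WT the same replicate numbers, but same-numbered libraries did not deviate together (Pearson's r = -0.00324 over 10806 genes), so the numbers were taken as names only; with the replicate block 30 elongation factor genes were lower, 9990 genes were lower and 60 higher. The alternative that leaves out bases in other protein-coding genes was chosen after seeing the data and kept 30 lower. Depth is unknown, and a gene at 0 has no upper limit for its signal. The cause of these shifts was not tested.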
